A study of Mus musculus with 4 samples.

Results

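The genes described here are the machinery that carries a signal from the T cell receptor into the cell: 40 genes chosen by name as receptor chains, kinases, adaptors, effectors, ubiquitin ligases and inhibitory adaptors, phosphatases, diacylglycerol kinases and surface modulators. All 40 were among the 32285 features of the count matrices, and all 40 were retained by the filter on low counts in every comparison below. The list was drawn up by name and function, with earlier results of these data known.

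The T cell receptor alpha and beta chains recognise peptide on an MHC molecule but carry no signaling domain of their own, so the receptor works through the CD3 chains and the zeta chain (Cd247). The Src family kinases Lck and Fyn phosphorylate these chains, Zap70 docks on them and phosphorylates the scaffolds Lat and Lcp2 (SLP-76), and the complex built there activates phospholipase C gamma, Ras and NF-kappaB. A second set of proteins, among them Csk, the Cbl ligases, the Ubash3 proteins, several phosphatases and the diacylglycerol kinases, limits the signal, and chronically stimulated T cells are known for changes on both sides of this balance.

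T cells (Tc) came from the spleens of mice on day 23 after total body irradiation and transplantation of allogeneic bone marrow and donor Tc of the H2Kb haplotype. All recipients were BALB/c mice that carried WEHI-3B cells, a mouse myelomonocytic leukemia line of that strain. Donor cells were either Havcr2fl/fl, in which the gene for TIM-3 is flanked by loxP sites, or Havcr2fl/fl;E8icre/+, in which Cre driven by the E8i enhancer of Cd8a is meant to delete it in CD8+ cells. There were 2 libraries of each genotype, each from 1 mouse as far as the labels show, and the age of the mice was not given in the labels. Values per library are given in 1 order throughout: Havcr2fl/fl;E8icre/+ replicate 1, Havcr2fl/fl;E8icre/+ replicate 2, Havcr2fl/fl replicate 1 and Havcr2fl/fl replicate 2. The assay counted unique molecular identifiers (UMIs) at the 3′ end of transcripts in single cells. UMIs were summed per library and class of cells, because the mouse and not the cell is the replicate.

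The libraries differed in size. They held 4328, 3208, 1511 and 6737 barcodes, of which 3431, 2551, 1213 and 4437 passed the limits on genes, UMIs and mitochondrial share. Their median depths were 5234 to 7457 UMIs, before likely doublets were left out. Pairs of libraries shared 1 to 6 barcodes. Of 23 clusters of all cells, 11 were T cells, with at least 95.65% of their cells holding 3 or more of 8 T cell markers outside the module. The isolated cells were thus not pure Tc, and the other 12 clusters, in which at most 8.345% of cells met that criterion, held 1011, 735, 402 and 2414 cells, with erythroid markers at 24705 to 75668 CPM (counts scaled to an equal total per library). Tc with Cd8 but no Cd4 UMIs numbered 1514, 931, 483 and 1253 (CD8+ Tc) and those with Cd4 but no Cd8 UMIs 562, 615, 241 and 306 (CD4+ Tc). The summed libraries held 3949711 to 8693897 UMIs in CD8+ Tc and 1016516 to 3778008 in CD4+ Tc.

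Havcr2 itself, given first as a check of the genotypes, was at 59.0, 7.92, 55.6 and 118 CPM in CD8+ Tc, from 537, 53, 216 and 544 UMIs. The library labelled Havcr2fl/fl;E8icre/+ replicate 1 was therefore not below Havcr2fl/fl replicate 1, and the difference did not pass the test (log2 fold change −1.35, SE 0.65, adjusted p = 1.00 in edgeR). The libraries labelled Havcr2fl/fl;E8icre/+ also differed from each other, at 59.0 and 7.92 CPM, and the cause was not tested. Donor and recipient Tc were not told apart here, since the antibody tag for donor cells was not used. The 3′ end counted here need not lie in the deleted part, so this level is no proof of the genotype in either direction. Every comparison between genotypes below rests on the labels. In CD4+ Tc Havcr2 was at 54.2, 28.9, 17.1 and 49.8 CPM.

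The promoters of the 3 CD3 genes are shown because these genes lie side by side, and Cd3g and Cd3e were called in most comparisons of lineages and states below while Cd3d was called in 3. They are on chromosome 9 (GRCm38): Cd3g at chr9:44969572-44980431 on the minus strand, Cd3d at chr9:44981786-44987339 on the plus strand and Cd3e at chr9:44998740-45009627 on the minus strand. Each window runs from 250 bases before to 50 bases after the RefSeq start on GRCm38.p6, 5′ to 3′ on the gene's strand. Capitals mark the E-box CAGGTG or its reverse complement CACCTG, the letters bound by E proteins and by ZEB factors. The windows are chr9:44980382-44980681 (minus), chr9:44981536-44981835 (plus) and chr9:45009562-45009861 (minus).
Cd3g: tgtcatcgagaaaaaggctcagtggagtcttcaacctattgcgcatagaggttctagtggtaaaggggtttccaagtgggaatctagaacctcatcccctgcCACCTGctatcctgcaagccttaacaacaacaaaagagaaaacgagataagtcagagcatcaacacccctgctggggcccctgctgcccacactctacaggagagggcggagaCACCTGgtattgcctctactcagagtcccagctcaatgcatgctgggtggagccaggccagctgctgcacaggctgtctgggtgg
Cd3d: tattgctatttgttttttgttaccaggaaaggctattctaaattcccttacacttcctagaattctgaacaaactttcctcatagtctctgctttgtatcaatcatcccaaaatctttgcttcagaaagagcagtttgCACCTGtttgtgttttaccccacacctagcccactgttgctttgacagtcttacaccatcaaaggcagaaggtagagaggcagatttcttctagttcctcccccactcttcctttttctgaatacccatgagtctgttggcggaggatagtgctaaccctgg
Cd3e: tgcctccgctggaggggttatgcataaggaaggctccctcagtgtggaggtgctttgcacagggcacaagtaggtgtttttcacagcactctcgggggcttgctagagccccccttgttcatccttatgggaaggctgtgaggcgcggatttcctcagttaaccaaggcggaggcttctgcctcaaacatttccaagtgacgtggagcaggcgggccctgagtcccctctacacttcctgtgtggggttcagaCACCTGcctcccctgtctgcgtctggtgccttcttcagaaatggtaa
All 3 windows held the E-box, Cd3g in 2 copies. The 31 members with a promoter in the RefSeq table had 45 windows, since some have several starts. Of these windows 17 held the E-box, which was present in 20.2% of all 32851 windows. The letters CTTTGA (or TCAAAG), read by TCF and LEF factors, were found in 8 of the 45 windows against 16.0% of all windows, and TGTGGT (or ACCACA), read by RUNX factors, in 7 of the 45 against 16.8%. These matches are a description of the sequence and not evidence of binding.

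The module's UMIs were concentrated in the Tc. Its 40 genes took 1.31 to 1.32% of all UMIs in CD8+ Tc and 1.23 to 1.29% in CD4+ Tc, against 0.0455 to 0.112% in the cells that were not Tc. Between 49.1 and 56.1% of the module's UMIs in CD8+ Tc came from the 6 receptor chains. For 36 members all 8 Tc sums lay above every non-T sum, a count given alone because the share over all genes was not measured. The other 4 were Ptpn6 (SHP-1), a phosphatase that blood cells of many lineages use, Ptpn2, Pag1 and Sos1. The mean of the Tc sums over that of the non-T sums was 0.88 for Sos1, 1.10 for Ptpn6 and 1.32 for Ptpn2, so these genes were about as high outside the Tc. After thinning each cell to 2000 UMIs, Trbc2 was seen in 91.5 to 95.7% of CD8+ Tc. In the non-T cells of the same libraries it was seen in 0.678 to 3.66%, and the source of this RNA was not tested.

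Levels differed widely within the module. In CD8+ Tc the beta chain constant gene Trbc2 was at 2276 ± 242 CPM (SD, n = 4), Cd3g at 1842 ± 142, the phosphatase Ptprc (CD45) at 1412 ± 168, Cd3d at 1125 ± 74.0, Cd3e at 873 ± 127 and Trac at 653 ± 51.1. The kinases Fyn and Lck followed at 414 and 404 CPM and Zap70 at 177 CPM. The lowest members were Pag1, a membrane adaptor that recruits Csk, at 23.9 CPM and the Ras exchange factor Sos1 at 21.3 CPM. CPM from 3′ ends is not corrected for how well each transcript is captured, so these levels are an order of counts, not of protein. Trbc2 has a near-identical neighbour in Trbc1, so its count is uncertain.

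CD8+ Tc were compared with CD4+ Tc of the same mouse, with the mouse as a block. Of the 40 members 11 were higher and 15 lower in CD8+ Tc, beside 12.3% of all 10295 genes tested that were higher and 12.4% that were lower. The median log2 fold change of the members was −0.05 and that of all genes 0.00. CPM values in this and the following comparisons are scaled by edgeR's TMM factors, and adjusted p values are those of edgeR's quasi-likelihood test with Benjamini-Hochberg adjustment over all genes. With the mouse as a block, the p values measure how the difference within a mouse varied among these 4 mice. For the genotype effect within a lineage, which had no block, they measure the spread between mice of the same genotype.

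Higher in CD8+ Tc were a Tec family kinase, receptor chains and some inhibitors, among them Cblb, Sla2, Ubash3b and Ptpn22. Other inhibitors (Sla, Ubash3a, Ptpn6 and Dgka) were lower. Txk, a kinase of the Tec family, was at 121, 129, 88.1 and 124 CPM in CD8+ Tc and at 39.1, 58.1, 40.3 and 52.7 CPM in CD4+ Tc (log2 fold change 1.30, SE 0.09, adjusted p = 3.6e-07). Ubash3b (STS-1), a phosphatase that restrains Zap70, was at 195, 135, 173 and 167 CPM against 79.3, 66.2, 74.6 and 78.6 CPM (1.16, SE 0.07, adjusted p = 1.2e-07). Grap2 (GADS), the adaptor that joins Lat to Lcp2, was at 182, 164, 185 and 165 CPM against 94.2, 77.2, 88.1 and 86.6 CPM (1.01, SE 0.07, adjusted p = 2.0e-07). The lowest CD8+ sum of each of these genes was above its highest CD4+ sum. The ubiquitin ligase Cblb, a brake on activation without costimulation, was also apart, at 242, 195, 200 and 218 CPM against 132, 118, 107 and 103 CPM (0.88). The inhibitory adaptor Sla2 (0.61) and the phosphatase Ptpn22 (0.52) were apart as well, at 88.3 to 112 against 52.0 to 73.6 CPM and at 354 to 433 against 206 to 324 CPM. Among the receptor chains Trbc2 was higher in CD8+ Tc, at 1937, 2351, 2417 and 2620 CPM against 1635, 1746, 1656 and 1833 CPM (0.43, SE 0.05, adjusted p = 3.7e-05). Cd3e was higher within every mouse, at 822, 874, 1095 and 785 CPM against 580, 693, 824 and 558 CPM (0.43, SE 0.05, adjusted p = 4.4e-05), but its sums overlapped between mice. Fyn, Csk and Cd3g completed the 11, with log2 fold changes of 0.24 to 0.36.

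Lower in CD8+ Tc were both surface modulators, the zeta chain, other inhibitors and all 4 effectors that changed. Cd5, a scavenger receptor family protein that dampens receptor signals, was at 83.1, 81.7, 83.2 and 99.0 CPM in CD8+ Tc and at 228, 255, 340 and 246 CPM in CD4+ Tc (log2 fold change −1.61, SE 0.10, adjusted p = 9.5e-08). Its neighbour and relative Cd6 was at 84.8, 72.1, 90.8 and 73.1 CPM against 238, 229, 314 and 199 CPM (−1.60, SE 0.07, adjusted p = 1.2e-08). Both genes were apart in all libraries, at about the same ratio. Tespa1, an adaptor first described in thymocyte development, was at 32.1, 79.7, 34.6 and 41.0 CPM against 114, 159, 89.4 and 185 CPM (−1.54, SE 0.15, adjusted p = 5.7e-06). Cd247 was at 183, 168, 183 and 149 CPM against 291, 263, 319 and 244 CPM (−0.71, SE 0.06, adjusted p = 1.9e-06), so the zeta chain was lower in the cells in which Trbc2, Cd3e and Cd3g were higher. Pag1 was at 19.3 to 28.9 CPM in CD8+ Tc and 38.6 to 49.8 CPM in CD4+ Tc (−0.86), and Skap1, an adaptor of integrin activation, at 206 to 282 against 294 to 359 CPM (−0.44). The diacylglycerol kinase Dgka was lower within every mouse, at 65.6, 85.9, 97.3 and 69.4 CPM against 93.9, 139, 171 and 88.6 CPM (−0.62, SE 0.08, adjusted p = 5.9e-05). Of the 7 effectors 4 were lower and 0 higher, namely Prkcq (PKC theta), the Ras activator Rasgrp1, and Malt1 and Bcl10 of the complex that leads to NF-kappaB, with log2 fold changes of −0.25 to −0.42. Lcp2, Sla and Ubash3a were lower by similar amounts (−0.24 to −0.36). Ptpn6 was at 61.5, 114, 74.5 and 52.7 CPM against 87.7, 123, 97.5 and 117 CPM (−0.47, adjusted p = 0.013), and this call was lost without Havcr2fl/fl;E8icre/+ replicate 1.

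**Figure D1:**
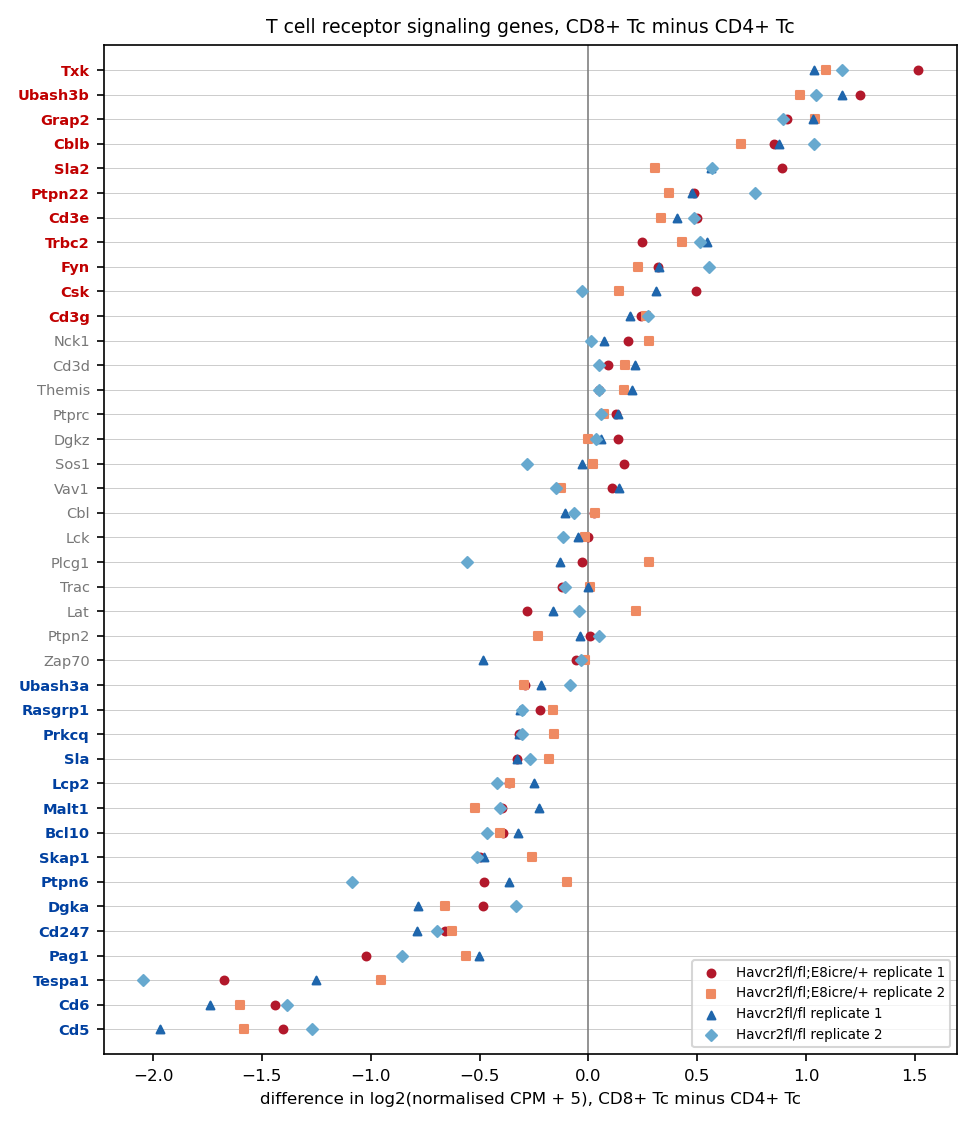
Difference in log2(normalised CPM + 5) between CD8+ Tc and CD4+ Tc (x axis) for each of the 40 members (y axis, in order of fold change), with 1 point per library and called members in bold. Txk, Ubash3b, Grap2 and Cblb lie right of 0 and Cd5, Cd6 and Tespa1 left of 0 in all 4 libraries.

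Related genes are set side by side here, in pairs chosen after their values were seen, as the plot of CD8+ minus CD4+ differences shows. Ubash3b was higher in CD8+ Tc (1.16) and Ubash3a lower (−0.24). Sla2 was higher (0.61) and Sla lower (−0.28). Cblb was higher (0.88) while Cbl was at −0.02 (SE 0.06), and Fyn was higher (0.36) while Lck was at −0.05 (SE 0.06), neither past the test. Dgka was lower (−0.62) with Dgkz at 0.06 (SE 0.06). Cd5 and Cd6 were both lower. The 14 members without a call, among them Cd3d, Trac, Lck, Zap70, Lat and Plcg1, ranged from −0.15 to 0.17.

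CD8+ and CD4+ Tc differed in the states they held, and these shares are set beside the comparison. Cells with a UMI of Tcf7 or Slamf6, genes of stem-like Tc, made up 18.0 to 39.3% of CD8+ Tc and 48.0 to 66.8% of CD4+ Tc. Within these cells alone 8 members were higher and 11 lower in CD8+ Tc, beside 6.61% of genes higher and 6.01% lower. Within the cells without either UMI 9 members were higher and 13 lower, beside 9.6% and 9.41% of genes. Summed gamma delta T markers were at 89.4 to 180 CPM in CD8+ Tc and 4.76 to 33.4 CPM in CD4+ Tc, and summed NK markers at 31.4 to 50.7 and 4.03 to 16.7 CPM, with Ncr1 at 0 in CD8+ Tc. Their part in the differences was not tested. Of 87 other genes of the pathway that were tested, 15 were higher and 25 lower in CD8+ Tc. The largest among them were Spry2 (2.81), Nedd4 (2.26) and Sh2d2a (1.46), all regulators of signal strength, and on the lower side the adaptor Trat1 (−1.98), Spry1 (−1.97) and the costimulatory receptor Icos (−1.71).

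To follow the module across states, the CD8+ and CD4+ Tc were clustered on genes outside the module and named from marker genes. Because clusters are drawn from the same cells, levels in them are given as a description without a test. There were 8 clusters of CD8+ Tc and 4 of CD4+ Tc with at least 10 cells in each library. The CD8+ clusters were T_PEX-like (478 cells, with Tcf7, Slamf6, Id3 and Xcl1 raised), T_TEX-like (721 cells, with Eomes, Nr4a2, Entpd1 and Tox), effector-like (421 cells, with Gzmk, Gzmb and Prf1), short-term effector-like (505 cells, with Cx3cr1, Zeb2 and Klf2), a pair of cycling-like clusters (383 cells with Pcna and Mcm genes, and 343 cells with Mki67 and Top2a) and a pair without a name, led by Ckb and Itga1 (1090 cells) and by Ccnb2 (191 cells). The cycling-like cluster with Pcna and Mcm genes raised 4 of 9 cycling markers and also 4 of 8 erythroid markers. The effector-like and T_TEX-like clusters shared several raised genes. The effector-like cluster held 155, 87, 43 and 136 cells per library. Without integration over libraries, the cluster with that name held 154, 1, 0 and 7 cells, so the effector-like cluster depends on the integration. The T_TEX-like cluster held 284, 114, 67 and 256 cells, and without integration 190, 31, 10 and 53. An unnamed cluster of 603 cells, 574 of them in Havcr2fl/fl replicate 2, then raised 7 of 9 T_TEX markers. The extent of the T_TEX-like cluster thus depends on the integration as well. The short-term effector-like cluster raised 5 of 7 markers of that class but also 5 of 6 markers of naive or memory Tc, so it cannot be read as short-term effectors alone. The CD4+ clusters were precursor-like (1093 cells, with Tcf7, Slamf6 and Id3 raised) and cytotoxic-like (213 cells, with Gzmb, Prf1 and Eomes). The others were cycling-like (141 cells, with Mki67 and Top2a) and an unnamed cluster led by Ifitm1 (114 cells). The precursor-like cluster raised only 3 of 6 markers of its class. At a finer clustering a cluster of 261 cells bore that name and the largest cluster (481 cells) had none, so the name is loose.

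The highest cluster exceeded the lowest by a median of 1.91-fold over the 40 members in CD8+ Tc and 2.27-fold in CD4+ Tc. In CD8+ Tc the range ran from 1.36-fold to 40.7-fold. The clusters compared are the extremes of each gene, so part of each gap comes from choosing them. The effector-like cluster was highest for 18 members, and for 16 of these the libraries of the next cluster overlapped its own. The short-term effector-like and T_TEX-like clusters were highest for 6 and 5, and the T_PEX-like cluster for 3. In CD4+ Tc the cytotoxic-like cluster was highest for 23 members, 14 of them with such an overlap. How often each cluster was highest over all genes was not measured, so these counts describe the 40 members only.

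**Figure D2:**
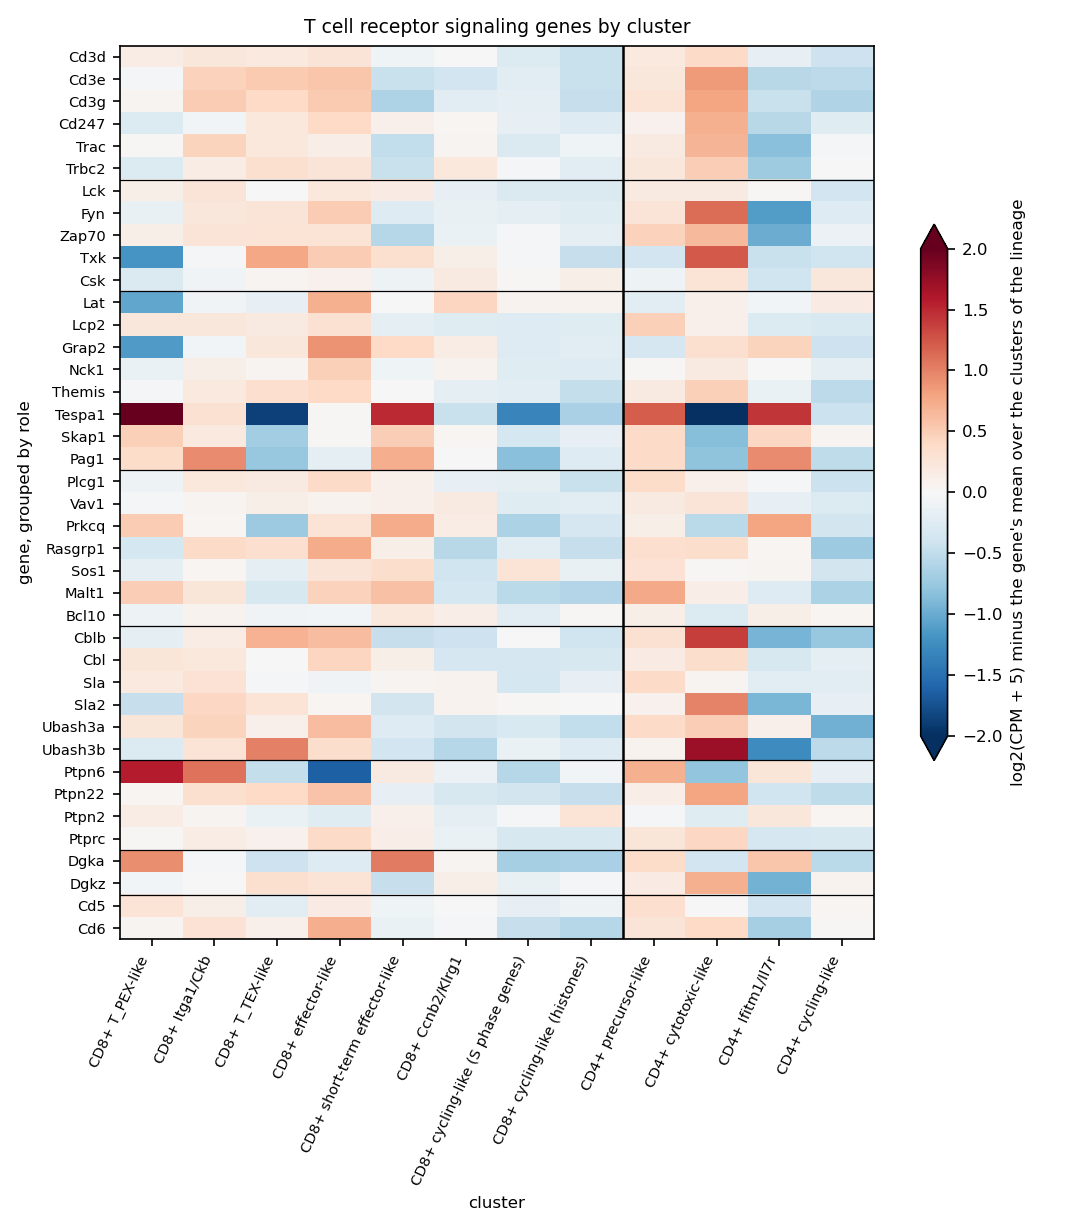
Level of each member (y axis, grouped by role) in each cluster (x axis) of CD8+ Tc and CD4+ Tc, in colour as log2(CPM + 5) of the mean over 4 libraries minus the gene's mean over the clusters of the lineage. Tespa1 and Ptpn6 are high in the T_PEX-like cluster and Cd3e, Cd3g, Trac and Trbc2 low in the short-term effector-like cluster.

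The summed receptor chains were at 8616 ± 1087 CPM (SD, n = 4) in effector-like, 8475 ± 662 in T_TEX-like and 8398 ± 677 CPM in the Itga1 cluster, levels that did not differ beyond their spread. They were at 6466 ± 509 CPM in T_PEX-like cells, 5991 ± 114 and 5333 ± 305 CPM in the cycling-like clusters and 5040 ± 320 CPM in short-term effector-like cells. In CD4+ Tc the cytotoxic-like cluster stood at 8640 ± 369 CPM and the precursor-like cluster at 6491 ± 293 CPM. Among CD8+ clusters the lowest mean was thus that of short-term effector-like cells. Their libraries (4751 to 5497 CPM) overlapped those of the lower cycling-like cluster (4884 to 5532 CPM). Among CD4+ clusters the lowest mean was that of the Ifitm1 cluster, at 3879 ± 711 CPM. The CD4+ cycling-like cluster stood at 4561 ± 305 CPM, and its libraries overlapped those of the Ifitm1 cluster.

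Tespa1 varied most. It was at 189 ± 52.6 CPM in T_PEX-like, 94.4 CPM in short-term effector-like and 4.64 ± 2.14 CPM in T_TEX-like cells, a 40.7-fold range. The T_TEX-like libraries were near the floor, at 2.47, 6.39, 3.13 and 6.57 CPM, so the size of this ratio is uncertain. After thinning Tespa1 was seen in 26.6 to 44.7% of T_PEX-like cells and 0.356 to 1.49% of T_TEX-like cells. In CD4+ Tc Tespa1 was at 188 CPM in precursor-like and 13.0 ± 8.75 CPM in cytotoxic-like cells. Its highest CD4+ mean was that of the unnamed Ifitm1 cluster, at 218 ± 100 CPM. Ptpn6 was at 176 ± 24.8 CPM in T_PEX-like, 38.7 CPM in T_TEX-like and 14.5 ± 12.5 CPM in effector-like cells. Dgka was at 148 CPM in T_PEX-like and 160 ± 18.5 CPM in short-term effector-like cells, which did not differ beyond their spread, and at 55.5 CPM in T_TEX-like cells. Prkcq followed the order of Dgka, with 171, 202 ± 43.4 and 69.5 ± 9.1 CPM.

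Several members of different roles were higher in T_TEX-like or effector-like cells than in T_PEX-like cells. Txk was at 45.0 ± 18.2 CPM in T_PEX-like and 189 ± 69.8 CPM in T_TEX-like cells, and Ubash3b at 118 and 295 ± 62.2 CPM. Grap2 and Lat, which sit in the same scaffold, were lowest in T_PEX-like cells, at 74.0 ± 12.3 and 145 ± 16.7 CPM, and highest in effector-like cells, at 320 ± 37.4 and 495 ± 67.6 CPM. Cblb was at 318 CPM in T_TEX-like and 140 CPM in short-term effector-like cells. Cd3g was at 2491 ± 345 CPM in effector-like, 1803 CPM in T_PEX-like and 1128 ± 107 CPM in short-term effector-like cells.

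**Figure D3:**
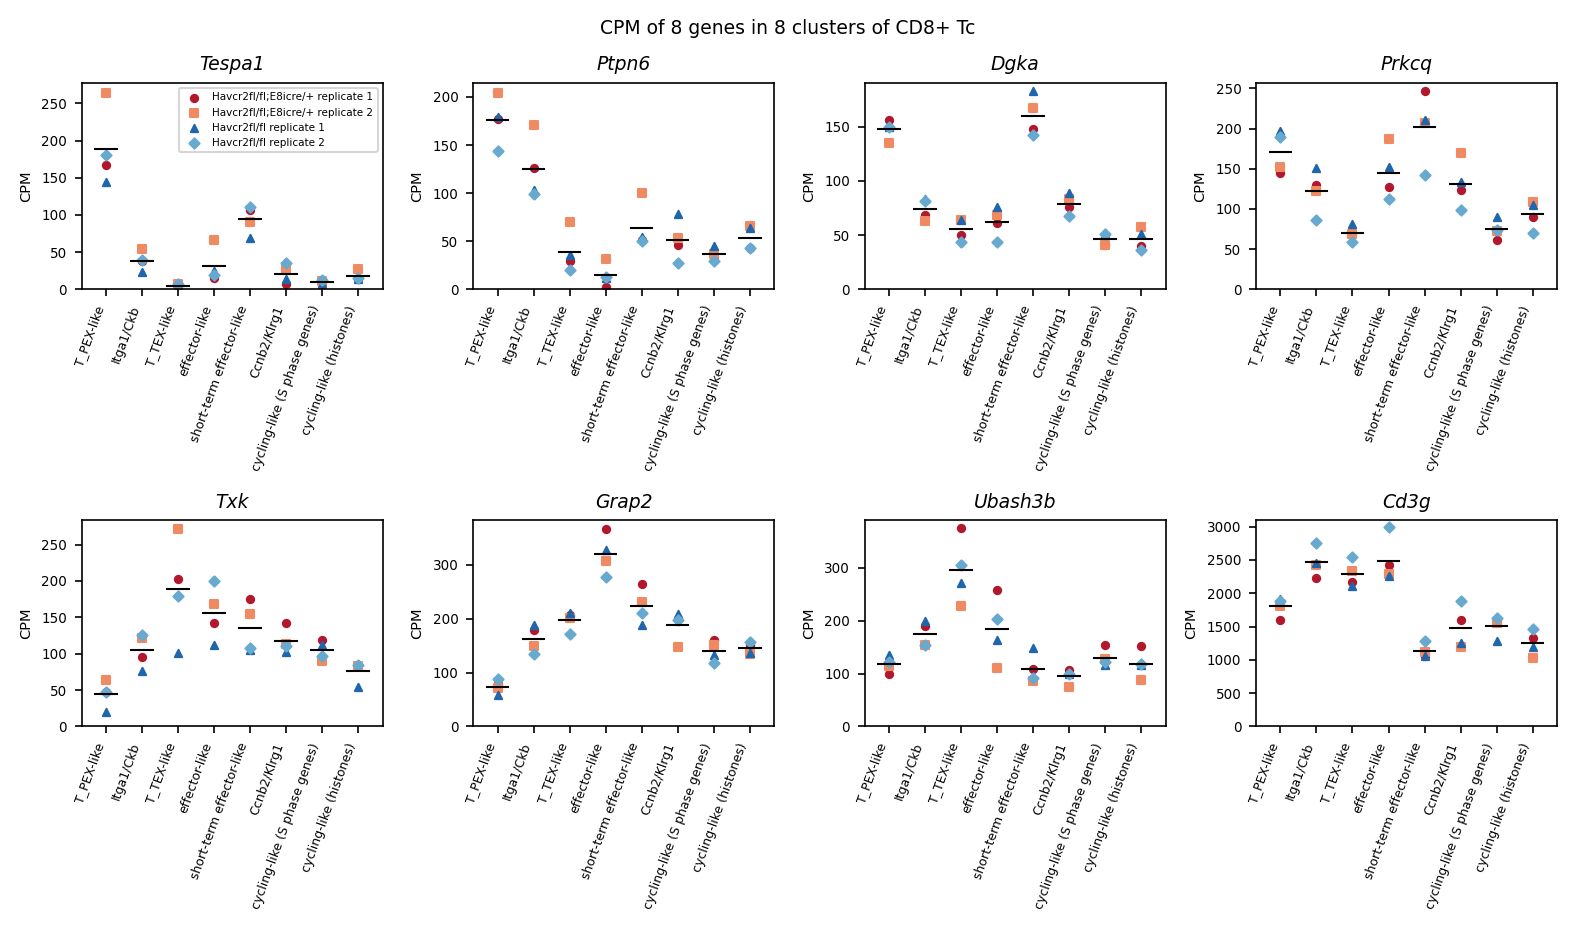
CPM (y axis, from 0) of 8 members in the 8 CD8+ clusters (x axis), with 1 point per library and a line at the mean of the 4 libraries. Tespa1 is near 0 in all 4 T_TEX-like libraries and above 100 CPM in all 4 T_PEX-like libraries.

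Taken within each mouse, T_PEX-like cells had more of 12 members and less of 17 than T_TEX-like cells in all 4 libraries, on the scale of log2(CPM + 5), beside 18.5% of 8402 genes (those with at least 50 UMIs in both clusters together) that were higher and 16.8% that were lower. The differences were 4.32 ± 0.27 (SD, n = 4) for Tespa1, 2.16 for Ptpn6, 1.35 for Dgka, 1.23 for Prkcq and 1.17 for both Pag1 and Skap1. On the lower side they were −1.96 ± 0.11 for Txk, −1.37 for Grap2, −1.28 for Ubash3b, −0.90 for Cblb and −0.85 for Lat. In clusters drawn without integration, T_PEX-like cells had more of 11 and less of 14 members than T_TEX-like cells in all 4 libraries. The smallest library there held 10 cells of a cluster. Against short-term effector-like cells, T_PEX-like cells had more of 11 and less of 7 members in all 4 libraries, beside 19.2% of 7695 genes higher and 13.6% lower. Ptpn6 (1.43), Tespa1 (0.95), Zap70 (0.68) and Cd3g (0.68) were higher and Txk (−1.55), Grap2 (−1.53) and Lat (−1.03) lower. CD4+ precursor-like cells had more of 9 and less of 10 members than cytotoxic-like cells in all 4 libraries, beside 15.8% of 8327 genes higher and 10.2% lower, with Tespa1 at 3.48 and Ptpn6 at 1.56 on one side and Ubash3b at −1.63 and Cblb at −1.05 on the other.

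A test of state needs cells chosen without clustering, so CD8+ Tc with a Tcf7 or Slamf6 UMI (1128 cells) were compared with the 3053 that had neither, within each mouse. These gate genes are not members, and both were left out of the test. A cell without a UMI can still express the gene, and the gated cells had median depths of 3513 to 7068 UMIs against 2963 to 6896 in the others. Of the 40 members 5 were higher and 13 lower, beside 8.28% of 9723 genes that were higher and 7.48% that were lower.

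Tespa1 was at 73.6, 129, 52.9 and 87.3 CPM in the cells with a Tcf7 or Slamf6 UMI and at 17.5, 37.4, 20.9 and 27.5 CPM in the others (log2 fold change 1.77, SE 0.11, adjusted p = 3.9e-11). Dgka was at 102, 110, 126 and 101 CPM against 51.4, 64.0, 74.5 and 59.2 CPM (0.83, SE 0.08, adjusted p = 5.5e-08). Both were apart, with every sum of the gated cells above every sum of the others. Ptpn6 was higher within every mouse, at 91.6, 126, 81.9 and 80.2 CPM against 49.5, 101, 67.1 and 43.9 CPM (0.56, SE 0.10, adjusted p = 0.00023), but overlapped between mice. Skap1 (0.49) and Prkcq (0.47) were apart, at 257 to 340 against 179 to 247 CPM and at 130 to 164 against 81.8 to 127 CPM.

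Of the 13 lower members 4 were receptor chains. Cd3g was at 1329, 1499, 1435 and 1498 CPM in the gated cells and at 1814, 2130, 2015 and 2219 CPM in the others (−0.50, SE 0.06, adjusted p = 4.0e-07). Cd3e was at 644, 672, 895 and 551 CPM against 850, 1013, 1199 and 826 CPM (−0.50, SE 0.06, adjusted p = 2.9e-06), and Trbc2 and Trac were lower by 0.33 and 0.23 on the log2 scale. The inhibitors Ubash3b, Cblb and Sla2 were lower too, while Ptpn6 and Dgka, which also limit the signal, were higher. Ubash3b was at 115, 96.9, 140 and 103 CPM against 214, 162, 191 and 181 CPM (−0.73, SE 0.08, adjusted p = 2.6e-07), Cblb at 155 to 171 against 215 to 256 CPM (−0.50) and Sla2 at 65.4 to 79.3 against 104 to 118 CPM (−0.55). Ubash3b, Cblb and Sla2 were all apart. Txk was at 88.9, 90.6, 63.6 and 75.1 CPM against 127, 157, 102 and 134 CPM (−0.70, SE 0.08, adjusted p = 4.5e-07), again apart. Rasgrp1 (−0.39), Grap2 (−0.37), Zap70 (−0.27), Ptpn22 (−0.27) and Themis (−0.22) were the remaining calls, and Zap70 was not lower in 1 of the 4 mice. With classes drawn from cells thinned to 2000 UMIs, and the full counts of these cells summed, 8 members were lower in place of 13.

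Summed erythroid markers were at 258 to 2584 CPM in the gated cells and 1497 to 10052 CPM in the others, and 39.3 to 43.1% of gated cells against 39.8 to 47.6% of the others had a Mki67 or Top2a UMI. The part of erythroid RNA in these differences was not tested. Without the cells that had a Mki67 or Top2a UMI, 5 members were higher and 11 lower, beside 5.84% of genes higher and 5.2% lower. Of the other pathway genes 10 were higher and 15 lower, led by Trat1 (1.37), Ptpn3 (0.90) and Icos (0.84) and by Nedd4 (−1.04), Sh2d2a (−0.91) and the MAP kinase phosphatase Dusp5 (−0.86).

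CD4+ Tc with a Tcf7 or Slamf6 UMI (1011 cells) were compared in the same way with the 713 without. Here 4 members were higher and 7 lower, beside 4.39% of 8067 genes that were higher and 3.79% that were lower. Tespa1 was at 131, 203, 100 and 257 CPM against 95.7, 87.2, 74.4 and 126 CPM (0.83, SE 0.13, adjusted p = 0.00085), higher within every mouse with overlap between mice. Dgka (0.56), Ptpn6 (0.55) and Skap1 (0.43) were the other 3, and Skap1 was apart at 327, 380, 349 and 463 CPM against 267, 292, 274 and 279 CPM. Ubash3b was at 59.0, 51.8, 59.7 and 49.7 CPM against 123, 103, 114 and 112 CPM (−1.03, SE 0.12, adjusted p = 5.3e-05), apart in all libraries. Cd3g was at 1329, 1502, 1521 and 1568 CPM against 1884, 1856, 1862 and 2034 CPM (−0.37, SE 0.07, adjusted p = 0.0025) and was apart as well. Cd3e (−0.41), Cblb (−0.53), Rasgrp1 (−0.49), Ptpn22 (−0.40) and Ubash3a (−0.40) were lower without being apart, and Cblb was higher in 1 mouse.

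All 4 members higher in the gated CD4+ Tc were also higher in the gated CD8+ Tc (100% of 4 and 80% of 5), and 6 lower members were shared (85.7% of 7 and 46.2% of 13). The cells differ between these comparisons but the gate and the mice are the same. The overlap over all genes was not measured, so these shares cannot be read as particular to the module. Of the CD4+ calls on the lower side, only Ubash3b was left without the cells that had a Mki67 or Top2a UMI, where 6 members were higher, beside 2.42% of genes higher and 2.5% lower. The count of higher members was 1 without Havcr2fl/fl;E8icre/+ replicate 2 and 2 without Havcr2fl/fl replicate 2, and that of lower members 3 when Havcr2fl/fl;E8icre/+ replicate 1, Havcr2fl/fl;E8icre/+ replicate 2 or Havcr2fl/fl replicate 2 was left out. Of the other pathway genes 2 were higher, among them the calcium channel Itpr1 (0.42), and 6 lower, led by Nedd4 (−1.50), Dusp5 (−1.15) and Sh2d2a (−0.99).

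**Figure D4:**
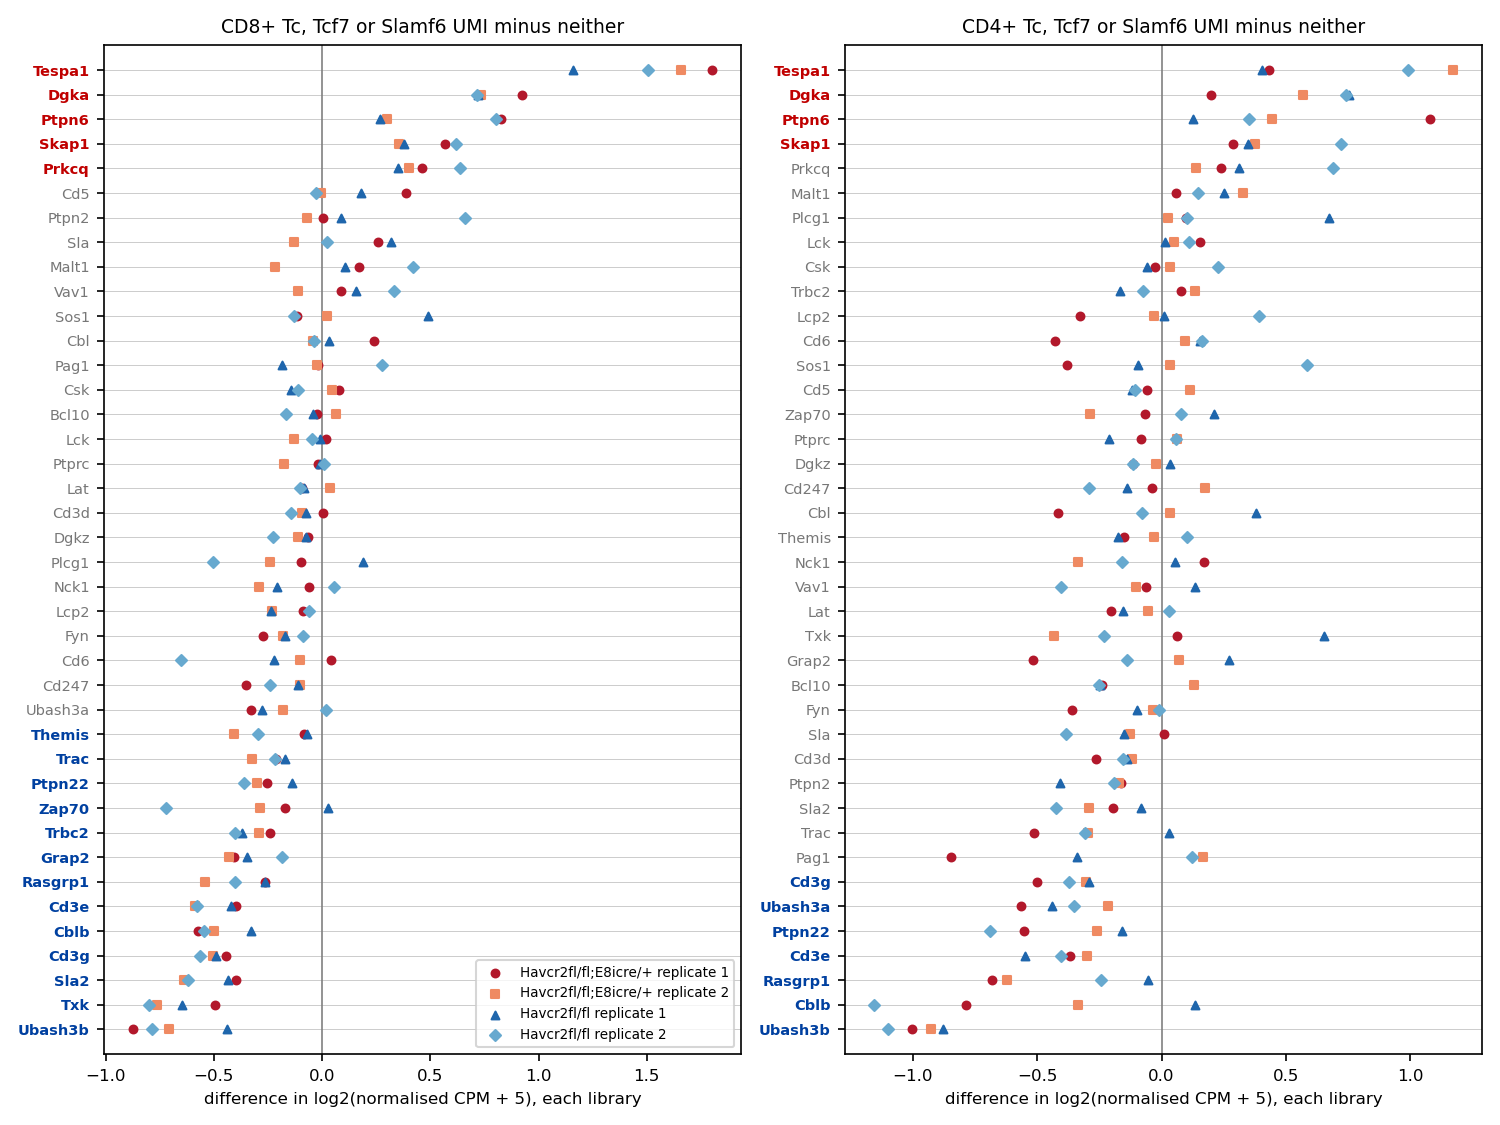
Difference in log2(normalised CPM + 5) between Tc with and without a Tcf7 or Slamf6 UMI, in CD8+ and CD4+ Tc, for each member (y axis, in order of fold change, called members in bold) with 1 point per library. Tespa1, Dgka, Ptpn6 and Skap1 lie right of 0 and Ubash3b and Cd3g left of 0 in all 4 libraries of both lineages.

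CD8+ Tc with a Mki67 or Top2a UMI, genes that dividing cells express, had less of many members. Of the 40, 22 were lower and 0 higher by edgeR, beside 17.7% of 9803 genes that were lower and 19.3% that were higher. At an unadjusted p under 0.05, 0 members were higher, and DESeq2 called 0 higher and 16 lower. With classes drawn from thinned cells 1 member was higher and 24 lower. The members' median log2 fold change was −0.20 and that of all genes −0.03. Tespa1 was at 20.8, 53.7, 21.3 and 22.7 CPM in these cells and at 46.7, 104, 49.1 and 60.0 CPM in the others (−1.13, SE 0.10, adjusted p = 2.3e-10). Ptpn6 was at 43.8, 86.5, 63.8 and 47.4 CPM against 83.5, 140, 84.0 and 57.3 CPM (−0.64, SE 0.09, adjusted p = 1.4e-06). Both were lower within every mouse, with overlap between mice. Dgka was apart, at 54.2, 70.4, 77.9 and 56.2 CPM against 78.1, 99.9, 116 and 82.1 CPM (−0.54, SE 0.08, adjusted p = 1.8e-06), and so was Malt1, at 81.8 to 102 against 113 to 142 CPM (−0.41). Cd6 (−0.42), Pag1 (−0.39), Cbl (−0.34), Rasgrp1 (−0.32) and Prkcq (−0.32) followed. The 3 CD3 chains that were called, Cd3e (−0.30), Cd3g (−0.24) and Cd3d (−0.21), and Lck (−0.25) were lower by small amounts, while Lat, at 0.10 (SE 0.06), and Fyn, at −0.11 (SE 0.05), did not pass. The gated cells had median depths of 4108 to 9015.5 UMIs against 2725.5 to 6090.0 in the others. A single UMI admits a cell, so deeper cells pass this gate more easily, and the 1778 cells that did need not all be dividing. Lower CPM of a gene cannot be told apart from more RNA of other genes. Of the other pathway genes 5 were higher, led by Akt1 (0.43), Hras (0.37) and Coro1a (0.33), and 28 lower, led by Spry2 (−0.68), Dusp2 (−0.57) and Icos (−0.54).

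In CD4+ Tc the same gate gave 7 lower members and 0 higher by edgeR, beside 4.96% of 8290 genes lower and 8.13% higher, with 0 members higher at an unadjusted p under 0.05 and 0 by DESeq2. The lower members were 1 by DESeq2 and 4 with classes drawn from thinned cells. All 7 were also lower in the CD8+ Tc of this gate (100% of 7 and 31.8% of 22), and here too the overlap over all genes was not measured. Tespa1 was at 78.8, 122, 76.7 and 118 CPM against 156, 199, 102 and 265 CPM (−0.83, SE 0.12, adjusted p = 5.6e-05). Rasgrp1 was apart, at 105, 93.3, 96.3 and 87.4 CPM against 164, 126, 113 and 130 CPM (−0.48, SE 0.11, adjusted p = 0.0055). Txk (−0.47), Ptpn6 (−0.44), Cd3g (−0.25), Ptprc (−0.24) and Cd3d (−0.21) were lower within every mouse. This count fell to 3, 2 and 4 without Havcr2fl/fl;E8icre/+ replicate 1, Havcr2fl/fl;E8icre/+ replicate 2 and Havcr2fl/fl replicate 2. Of the other pathway genes 1 was higher, Coro1a (0.32), and 8 lower, led by Dusp2 (−0.63), Ikbkb (−0.49) and Orai1 (−0.49).

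CD8+ Tc with a Cx3cr1 or Klrg1 UMI (642 cells), genes of short-lived effectors, had less of the receptor chains. Of the 40 members 2 were higher and 11 lower, beside 9.06% of 9267 genes higher and 6.7% lower. Of these 13 calls, 11 went in 1 direction in all 4 mice. Cd3g was at 1309, 1355, 1311 and 1566 CPM in the gated cells and at 1775, 1975, 1983 and 2166 CPM in the others (−0.51, SE 0.04, adjusted p = 7.3e-09), apart in all libraries. Cd3e was at 705, 694, 859 and 598 CPM against 821, 904, 1171 and 802 CPM (−0.37, SE 0.05, adjusted p = 1.7e-05), and Trac (−0.21), Cd3d (−0.15) and Trbc2 (−0.13) were lower by less. Cd247 was the only receptor chain without a call. Ubash3a was apart at 123, 115, 107 and 106 CPM against 158, 139, 138 and 128 CPM (−0.32), and Ptpn22 (−0.33), Zap70 (−0.29), Lcp2 (−0.26), Cblb (−0.22) and Fyn (−0.19) completed the list. Prkcq was higher within every mouse, at 158, 172, 151 and 99.8 CPM against 92.4, 122, 139 and 90.2 CPM (0.42, SE 0.09, adjusted p = 0.0028), and Lat at 305, 345, 291 and 402 CPM against 282, 284, 276 and 328 CPM (0.19). The count of higher members was 1 without Havcr2fl/fl;E8icre/+ replicate 1, Havcr2fl/fl;E8icre/+ replicate 2 or Havcr2fl/fl replicate 2. The count of lower members was 5, 6 and 4 without Havcr2fl/fl;E8icre/+ replicate 2, Havcr2fl/fl replicate 1 and Havcr2fl/fl replicate 2. It was 2 with classes drawn from thinned cells. Summed erythroid markers were at 180 to 638 CPM in the gated cells and 1470 to 8534 CPM in the others, and their part in the result was not tested. Of the other pathway genes 9 were higher, led by Nck2 (0.87), Trat1 (0.68) and Tagap (0.59), and 13 lower, led by Dusp6 (−0.65), Nfatc1 (−0.52) and Lax1 (−0.50).

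Cd3g was thus called in 6 of the comparisons, all those between lineages or states, and Cd3e, Rasgrp1, Ptpn6, Ptpn22 and Tespa1 in 5 each. No comparison gave a call for 6 members. These were the phospholipase Plcg1, the exchange factors Vav1 and Sos1, the adaptor Nck1, the phosphatase Ptpn2 and the diacylglycerol kinase Dgkz. How many of all genes were called this often, or never, was not measured, so these counts describe the members only.

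The design's own question was the effect of the E8icre/+ genotype, with 2 libraries of each genotype. None of the 40 members passed in CD8+ Tc (0 of 40 by edgeR, 0 by DESeq2 and 0 at an unadjusted p under 0.05), beside 0.0277% of 10817 genes. In CD4+ Tc 0 of 40 passed by edgeR, 0 by DESeq2 and 0 at an unadjusted p under 0.05, beside 0% of 9582 genes by edgeR, of which 301 had an unadjusted p under 0.05 and 5 were called lower by DESeq2. Log2 fold changes of the members, Havcr2fl/fl;E8icre/+ relative to Havcr2fl/fl, ranged from −0.31 to 0.55 (median 0.04) in CD8+ Tc and from −0.32 to 0.32 (median −0.06) in CD4+ Tc. The libraries of the genotypes did not overlap for 12 of 40 members in CD8+ Tc, beside 28% of all genes, and for 11 of 40 in CD4+ Tc, beside 31.2%.

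The smallest p values in CD8+ Tc belonged to Rasgrp1, Ptpn6 and Tespa1. Rasgrp1 was at 107 and 94.8 CPM in the libraries labelled Havcr2fl/fl;E8icre/+ and at 80.8 and 83.3 CPM in those labelled Havcr2fl/fl (0.30, SE 0.18, unadjusted p = 0.116 in edgeR). Tespa1 was at 31.1 and 78.6 against 34.0 and 40.5 CPM (0.55, SE 0.36), and Ptpn6 at 59.6 and 113 against 73.0 and 51.9 CPM (0.46, SE 0.29). For these last genes Havcr2fl/fl;E8icre/+ replicate 2 alone was high, and the sign turned without it. In CD4+ Tc, in which Cre is not meant to act, the smallest p values belonged to Ubash3a, at 195 and 171 against 155 and 138 CPM (0.32, SE 0.20), Malt1, at 165 and 169 against 138 and 134 CPM (0.30, SE 0.19), and Cblb, at 134 and 120 against 109 and 106 CPM (0.24, SE 0.19). The genotypes did not overlap for these 3 genes, but their differences were not past the test.

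The difference between the genotype effects of CD8+ and CD4+ Tc also passed for 0 of 40 members by edgeR and by DESeq2, beside 0.0184% of 10858 genes, and 2 members had an unadjusted p under 0.05. These were Plcg1 (0.48, SE 0.20, adjusted p = 1.00) and Trbc2 (−0.19, SE 0.08, adjusted p = 1.00). Without Havcr2fl/fl;E8icre/+ replicate 1, 1 member was called, Tespa1 at 0.80 (SE 0.19, adjusted p = 0.0059), named after its value was seen. A difference in genotype effect between the sides of the 5 state gates was called for 0 of 40 members in each by edgeR, beside 0.107%, 0% and 0.0102% of genes in the CD8+ Tcf7 or Slamf6, Mki67 or Top2a and Cx3cr1 or Klrg1 gates and 0.0344% and 0.19% in the CD4+ Tcf7 or Slamf6 and Mki67 or Top2a gates, with 0 to 3 members at an unadjusted p under 0.05. The smallest unadjusted p among the gates was that of Prkcq in the Cx3cr1 or Klrg1 gate (difference 0.50, adjusted p = 1.00 in edgeR).

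**Figure D5:**
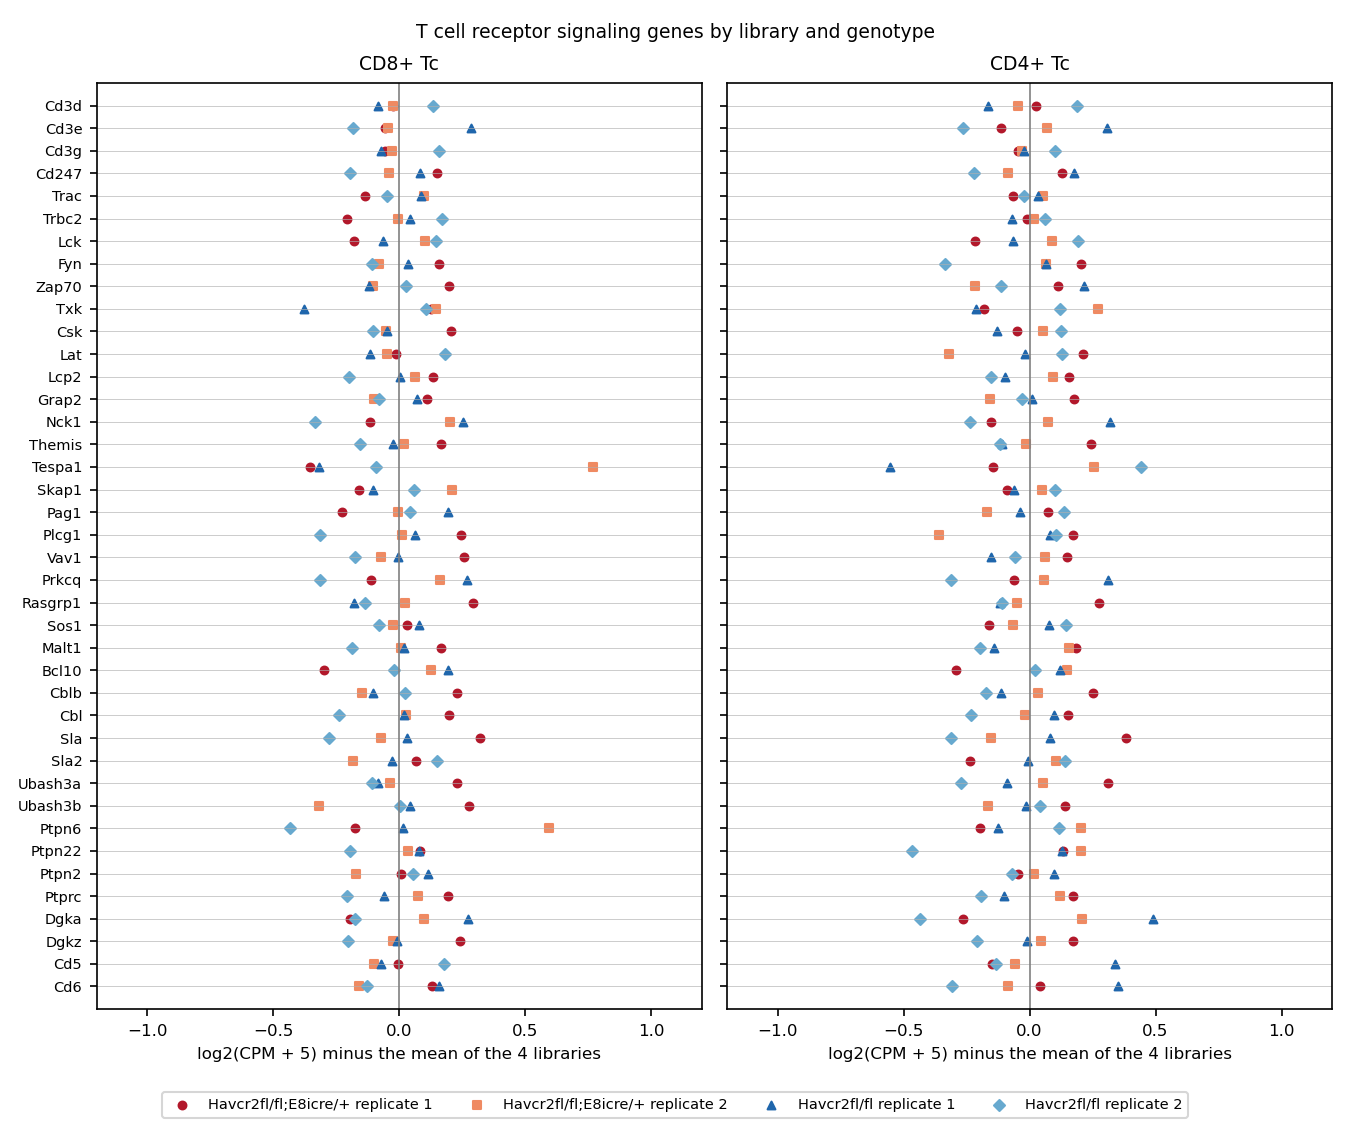
Level of all 40 members in CD8+ Tc (left) and CD4+ Tc (right), as log2(CPM + 5) minus the mean of the 4 libraries, with 1 point per library and Havcr2fl/fl;E8icre/+ in red and Havcr2fl/fl in blue. Libraries of the genotypes interleave for most members, and the point farthest right in CD8+ Tc is Tespa1 of Havcr2fl/fl;E8icre/+ replicate 2.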

How the data were processed

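Single-cell libraries were made with the 10x Genomics 3′ kit from Tc of spleens taken on day 23, with 2 Havcr2fl/fl;E8icre/+ and 2 Havcr2fl/fl libraries. The authors deposited raw UMI counts per gene and barcode, made with Cell Ranger 6.1.2 on mm10 per the submitters' processing notes. The TotalSeq donor antibody tag was not used here.

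Cells with at least 500 genes and 1000 UMIs and at most 10% mitochondrial UMIs were retained. Scrublet scores (scanpy 1.11.5) were used to leave out 119, 65, 15 and 239 likely doublets, at a rate of 0.8% per 1000 barcodes. Cells were clustered with Seurat 5.3.0 in R 4.3.3 after integration over libraries, without the 40 members among the variable genes. CD8+ Tc and CD4+ Tc were called from Cd8a, Cd8b1 and Cd4 UMIs within T cell clusters. Cells with UMIs of both or of neither coreceptor were left out. Counts were summed per library and class. Sums were tested with edgeR 4.0.16 (quasi-likelihood, TMM, filterByExpr, Benjamini-Hochberg at 0.05 over all genes), with the mouse as a block within lineage and state comparisons and without a block between genotypes. Genes that defined a class were left out of its test. The alternatives were DESeq2 1.42.0 (also its size factors in edgeR), no filter on low counts, stricter cell limits and doublets kept. The others were classes from thinned cells, a replicate block and leaving out each library. For the thinned alternative, classes were drawn from cells thinned to 2000 UMIs, without cells under 2000 UMIs. The full counts of these cells were then summed, so tests called thinned did not equalise depth. The code was tested on simulated data.

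Named members are up to 8 rising and 8 falling with the largest change among those called, or the 3 with the smallest p. The members, the list of 89 other pathway genes and the marker lists were chosen with earlier results of these data known. Proportions of cells and UMI counts vary between mice as well as by counting error, and cells are not replicates. Promoters are from RefSeq (GRCm38.p6) and gene positions from the GENCODE annotation of GRCm38. For the CD4+ Tcf7 or Slamf6 gate, 1 of the other pathway genes that the naming rule would give is not reported here.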

Additional observations from a re-analysis of the deposited data

Results flagged for a closer look

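Among the other genes of the pathway, the genotype effect on Trat1, an adaptor of the T cell receptor complex, differed between CD8+ and CD4+ Tc by 2.17 on the log2 scale (SE 0.27, adjusted p = 0.0141, edgeR interaction of genotype and lineage). Trat1 was at 16.6 and 12.6 CPM in CD8+ Tc of the libraries labelled Havcr2fl/fl;E8icre/+ and at 7.36 and 6.80 CPM in those labelled Havcr2fl/fl. In CD4+ Tc it was at 41.4 and 24.6 against 71.7 and 71.4 CPM. The CD8+ values rest on 146, 83, 28 and 31 UMIs. Neither effect passed alone, at 1.04 in CD8+ Tc (adjusted p = 1.00) and −1.13 in CD4+ Tc (adjusted p = 0.712, both edgeR).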

How the results depend on the processing

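With 2 mice a genotype, counts over all genes moved most. Genes higher or lower by genotype in CD8+ Tc (2 and 1) were 46 and 58 without the filter, 1 and 0 thinned, 0 and 0 with the replicate block, and 4 lower by DESeq2. In CD4+ Tc (0 and 0) they were 25 and 22 without the filter, 1 and 4 with the replicate block, 5 lower by DESeq2 and 1 lower with doublets kept. The labels do not say whether equal replicate numbers mark pairs, so blocks are given as counts. The correlation of deviations was −0.124 in CD8+ and 0.0125 in CD4+ Tc, which cannot decide this with 2 mice a genotype. With the numbers crossed, chosen after seeing the data, genes higher and lower were 32 and 37 in CD8+ and 15 and 16 in CD4+ Tc. No member was called under any of these. Differences of genotype effects between lineages (1 and 1) were 15 and 39 without the filter, 3 and 4 with the stricter cell filter and 13 and 6 thinned.

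Between lineages (1270 and 1278 genes) DESeq2 called 743 and 777, cells with a Tcf7 or Slamf6 UMI gave 593 and 539, and cells without a Mki67 or Top2a UMI 750 and 797, both subsets chosen after seeing the data as below. In the CD8+ Tcf7 or Slamf6 gate (805 and 727 genes) DESeq2 called 430 and 355 and cells without a Mki67 or Top2a UMI gave 483 and 430, and thinning left 8 of 13 lower members. In the CD8+ Mki67 or Top2a gate (1892 and 1738 genes) DESeq2 called 1196 and 584, and 1 member was higher thinned. In the Cx3cr1 or Klrg1 gate (840 and 621 genes) DESeq2 called 497 and 224, thinning left 275 and 147 and cells without a Mki67 or Top2a UMI 246 and 146. Members there (2 and 11) were 1 and 3 by DESeq2, 4 and 2 thinned, 6 lower without Mki67 or Top2a UMIs and 1 higher without the filter. In the CD4+ Tcf7 or Slamf6 gate (354 and 306 genes) DESeq2 called 130 and 131, no filter gave 538 higher, thinning 106 and 133 and cells without a Mki67 or Top2a UMI 158 and 163. Members there (4 and 7) were 2 and 3 by DESeq2, 1 lower thinned and 1 lower without Mki67 or Top2a UMIs. In the CD4+ Mki67 or Top2a gate (674 and 411 genes) DESeq2 called 353 and 74 and thinning left 377 and 191, and the 7 lower members were 1 by DESeq2, 4 with the stricter cell filter and 4 thinned.

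Leaving out 1 library each gave 0 to 6 genes higher and 0 to 9 lower by genotype in CD8+ Tc, 1 to 38 and 9 to 17 in CD4+ Tc, and 0 to 21 and 0 to 43 for their difference, with 0 to 1 member higher. Between lineages it gave 812 to 1163 and 875 to 1093 genes and 10 to 13 and 12 to 14 members. In the CD8+ gates it gave 471 to 795 and 416 to 737 genes (members 5 to 5 and 9 to 13) for Tcf7 or Slamf6, 1514 to 1936 and 1276 to 1739 (18 to 25 members lower) for Mki67 or Top2a, and 592 to 737 and 349 to 476 (1 to 2 and 4 to 12 members) for Cx3cr1 or Klrg1. In the CD4+ gates it gave 124 to 349 and 128 to 312 genes (1 to 4 and 3 to 7 members), and 415 to 942 and 133 to 463 (2 to 10 members lower). The CD8+ genotype effect of Ptpn6 ranged from −0.065 to 0.85 and that of Tespa1 from −0.26 to 1.07, negative without Havcr2fl/fl;E8icre/+ replicate 2. Where a lone library remained it was assumed to vary like the others, and the cause of these changes was not tested.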
